A study of Mus musculus with 30 samples.

Results

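The HoxC cluster genes of paralogue groups 4 to 12 are Hoxc4, Hoxc5, Hoxc6, Hoxc8, Hoxc9, Hoxc10, Hoxc11 and Hoxc12. They were taken by gene symbol, as 8 of the 54134 genes in the count table, and are described in their order along the cluster. Expression was measured by RNA-seq at the poly(A) end of transcripts in mouse ES-Bruce4 embryonic stem cells on their way to neuromesodermal progenitors (NMPs), the bipotent cells that supply spinal cord and paraxial mesoderm as the body axis elongates. There were 10 groups of 3 libraries, 5 stages in wildtype and 5 in Nr6a1-/- cells, and the design asked how loss of the nuclear receptor gene Nr6a1 alters gene expression before and after addition of Gdf11.

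All 10 groups received FGF2. Day 2 cells (d2) had FGF2 alone for 48 h, and d2.5 and d3 cells then had FGF2 with CHIR, a Wnt pathway agonist, for 12 h and 24 h. Day 4 cells (d4) stayed in FGF2 and CHIR for 24 h beyond d3, whereas d4G cells had FGF2, CHIR and Gdf11 over the same 24 h. The Nr6a1-/- cells were 1 clone with a different deletion in exon 4 of each allele, so that genotype and clone cannot be told apart. Nothing in the labels states that the libraries of a group came from separate cultures, and the p-values then measure only the spread between these libraries, which may be technical.

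Hox genes encode homeodomain transcription factors that give cells a position along the head-to-tail axis. Within a cluster they are switched on one after another, with low-numbered genes first and high-numbered genes last, and they are expressed at progressively more caudal levels in the same order. Hoxc4 and Hoxc5 are known from the neck, Hoxc6 from the start of the thorax, Hoxc8 and Hoxc9 from the thorax, and Hoxc10 and Hoxc11 from the lumbar and sacral region. Gdf11 is a TGF-beta family ligand that drives the change from trunk to tail formation and brings on the posterior Hox genes.

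In the GENCODE annotation of GRCm38 the members lie on chromosome 15, all on the plus strand, and span 100.096 kb. The order from the posterior to the anterior end is Hoxc12 (chr15:102936757-102938609), Hoxc11 (chr15:102954427-102957708), Hoxc10 (chr15:102966796-102971893), Hoxc9 (chr15:102976439-102985099), Hoxc8 (chr15:102990607-102994111), Hoxc6 (chr15:102998257-103011881) and Hoxc4 (chr15:103018934-103036852). Hoxc5 is annotated from 102967443 to 103017429, because 1 of its 2 transcripts starts inside Hoxc10. These genes share 166 exonic bases (chr15:102967443-102967608), and how the counting treated reads there is not stated. The cluster also holds the antisense non-coding RNA Hotair on the minus strand, between Hoxc12 and Hoxc11 (chr15:102944062-102947730), and the microRNA gene Mir196a-2 between Hoxc10 and Hoxc9 (chr15:102973350-102973434). A further microRNA gene, Mir615, lies inside Hoxc5 (chr15:103014910-103015001).

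The mature product of Mir196a-2 is shown because miR-196 is a microRNA encoded within Hox clusters and known to act on Hox transcripts. It is read from chr15:102973365-102973386 on the plus strand (RefSeq, GRCm38.p6), and its seed, bases 2 to 8, is in capitals. The precursor had 0 counts over all 30 libraries, and a library primed on poly(A) tails does not measure a mature microRNA.
miR-196a-5p: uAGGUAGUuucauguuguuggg
The 7-letter complement of the seed, ACTACCT on the sense strand, was looked for in the longest annotated 3′ UTR of each member. Among the 8 members only Hoxc8 held it, at 2 places in its 966-base 3′ UTR, and 3.52% of the 2671 other genes with a 3′ UTR within 20% of that length held it at least once. Both sites are printed on the plus strand of GRCm38 with the match in capitals, the first from chr15:102992975-102992997 and the second from chr15:102993732-102993754. Such a match is a description of the letters and not evidence of binding.
Hoxc8 site 1: acactcacaactctaACTACCTg
Hoxc8 site 2: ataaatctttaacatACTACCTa

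The libraries held 1570714 to 3688197 counts (median 2366002), and a count of 0 allows a level of up to 0.829 to 1.91 normalised counts per 1000000 counts (CPM), depending on the library, for counting error alone. Levels below are CPM scaled by TMM factors and are given as the mean ± SD of 3 libraries. They are not divided by gene length, since each library was primed at the poly(A) tail, and a comparison of levels between genes rests on that. Nr6a1 itself was not lower in the knockout at the transcript level, with d3 levels of 177 ± 9.63 CPM (wildtype) and 287 ± 29.2 CPM (Nr6a1-/-). It was called higher at d3 (log2 fold change 0.70 ± 0.11 SE, FDR 1.74e-05), d4 (1.19 ± 0.11, FDR 2.27e-10) and d4G (0.67 ± 0.18, FDR 0.0142), but not at d2 or d2.5. Reads at the poly(A) end do not report on a deletion in exon 4. Library 2 of the d4 wildtype group stood apart, since its 7 epiblast markers summed to 754 CPM against 105 and 89.8 CPM in the other d4 wildtype libraries. Library 1 of the d4 Nr6a1-/- group also stood apart, with a chi-square per gene of 5.86 and 7.003 against its 2 replicates, which differed from each other by 2.65, and the lowest TMM factor of all libraries, 0.909. By the labels each of the 6 d4 libraries carried the same index sequence as a library of another group, namely those of the 3 d4G wildtype libraries, d4G Nr6a1-/- library 1 and d3 Nr6a1-/- libraries 2 and 3. Whether these were sequenced in separate pools is not stated in the sources used here, and every comparison with d4 rests on these libraries. Libraries with the same index could not be separated by it within a pool. If they were in separate pools, Gdf11 and pool cannot be told apart in the wildtype comparison of d4G with d4. The NMP markers T, Sox2, Nkx1-2, Cdx2, Fgf8, Fgf17, Wnt3a and Cyp26a1 were detected in every library from d3 on, and summed to 790 to 826 CPM in the d3 wildtype and 1017 to 1165 CPM in the d3 Nr6a1-/- libraries, with 3 higher and 2 lower of 8 tested.

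At d2 the members were close to silent in both genotypes. The 8 members together had 1 to 4 counts in each wildtype library and 0 to 3 counts in each Nr6a1-/- library. Hoxc4, Hoxc11 and Hoxc12 had 0 counts in all 6 libraries. None of the 7 tested members differed between the genotypes at d2 by edgeR or by DESeq2, none had an unadjusted p under 0.05, and 4.07% of the 12149 genes tested were called. Hoxc12 had too few counts to enter any test.

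Over the first 12 h with CHIR, from d2 to d2.5, members of the anterior and middle cluster were called higher in wildtype cells, and CHIR and time cannot be told apart over this step. Hoxc4 had 6, 8 and 4 counts in the d2.5 wildtype libraries, a level of 2.98 ± 1.03 CPM, against 0 at d2. With 0 counts held to the limit of 3 counts over the group, this was at least 7.02-fold higher (exact 95% lower counting limit 5.15). Hoxc5 reached 2.16 ± 1.29 CPM, Hoxc8 2.13 ± 0.983 CPM and Hoxc9 2.18 ± 1.30 CPM, so that none of these early genes exceeded a few CPM. Hoxc6, which lies between Hoxc5 and Hoxc8, had 2, 1 and 1 counts and did not pass the test (log2 fold change 1.09 ± 1.06 SE, FDR 0.485). The 4 members called higher from d2 to d2.5 in wildtype cells were thus Hoxc4, Hoxc5, Hoxc8 and Hoxc9, 4 of 7 tested against 13.3% of all genes called higher in that step. For Hoxc6 4 counts against 2 at d2 were too few to place its onset in this order. The Hoxc9 call was lost without d2.5 wildtype library 3.

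The same 12 h were tested separately in Nr6a1-/- cells, and the change over this step was not compared between the genotypes. Hoxc4 was called higher there (9 counts against 0, log2 fold change 4.45 ± 1.18, FDR 0.00522), at least 2.70-fold when 0 is held to 3 counts (exact 95% lower counting limit 1.78). It was the 1 member called among 7 tested, a share near the 12.9% of all genes called higher. Hoxc5 had 7 counts against 1 and missed the threshold (log2 2.27 ± 1.02, FDR 0.109), and it was called without d2 Nr6a1-/- library 1.

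At d2.5, 2 of 7 tested members, Hoxc8 and Hoxc9, were lower in Nr6a1-/- cells than in wildtype cells, against 3.59% of all genes called lower. Hoxc8 had 6, 2 and 5 counts in the wildtype libraries and 1, 0 and 0 in the Nr6a1-/- libraries. Hoxc9 had 2, 4 and 7 counts against 1, 0 and 0. Each had 13 counts in wildtype and 1 in Nr6a1-/- cells, a ratio of 0.0563 (0.00132 to 0.375, 95% counting interval). The FDR was 0.0121 for Hoxc8 and 0.00839 for Hoxc9. Hoxc4 was at 1.09 ± 0.369 CPM in Nr6a1-/- cells against 2.98 ± 1.03 CPM, a difference that missed the threshold (log2 -1.41 ± 0.51, FDR 0.108). The Hoxc8 call was lost on leaving out wildtype library 1, with Hoxc9 alone still called, and the Hoxc9 call was lost on leaving out wildtype library 3. Leaving out Nr6a1-/- library 2 or 3 also left only Hoxc9.

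By d3 the anterior and middle members were all expressed in wildtype cells. From d2.5 to d3, 5 of 7 tested members rose in wildtype cells, namely Hoxc4, Hoxc5, Hoxc6, Hoxc8 and Hoxc9, against 5.91% of all genes called higher. The fold was lowest for Hoxc4 (log2 1.41 ± 0.35, FDR 0.00594) and highest for Hoxc8 (log2 3.85 ± 0.32, FDR 3.2e-11), and the Hoxc4 call was lost without d3 wildtype library 2. Hoxc8 stood at 32.3, 35.0 and 28.4 CPM and had 47.8% ± 2.29 of the summed member counts, whereas Hoxc4, Hoxc5, Hoxc6 and Hoxc9 lay between 7.35 and 9.95 CPM. In Nr6a1-/- cells the same 5 members rose over this step, against 7.43% of all genes. Hoxc10 had 4 counts in the d3 wildtype libraries together and 2 in the Nr6a1-/- libraries. Hoxc11 and Hoxc12 had at most 1 count in either d3 group.

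From d3 to d4 without Gdf11, Hoxc4, Hoxc6, Hoxc8 and Hoxc9 rose further in wildtype cells, 4 of 7 tested against 9.77% of all genes. Hoxc9 rose most, from 9.95 ± 2.496 to 59.9 ± 12.7 CPM (log2 2.58 ± 0.19, FDR 1.21e-12). Hoxc8 reached 87.3 ± 13.3 CPM and was the most abundant member. Hoxc5 stayed near its d3 level at 10.1 ± 0.779 CPM (log2 0.16 ± 0.27, FDR 0.741). Hoxc10 had 8, 7 and 5 counts at d4 against 0, 2 and 2 at d3, a ratio of 3.65 (1.22 to 14.7, 95% counting interval) that missed the threshold in the fit (log2 1.78 ± 0.79, FDR 0.111). The same 4 members were called without d4 wildtype library 2, the library with the raised epiblast markers.

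In Nr6a1-/- cells 5 of 7 tested members rose from d3 to d4, the same 4 and Hoxc10, against 13.6% of all genes. Hoxc10 had 1, 4 and 12 counts in the d4 libraries against 0, 1 and 1 at d3. It was called at an FDR of 0.0136, but the wide spread of the d4 libraries left 1.94 CPM as the middle value, and the call was lost without Nr6a1-/- d4 library 3 or d3 library 1. The changes from d2 to d3 and from d3 to d4 were also compared between the genotypes. By edgeR and by DESeq2 0 of 7 members differed in either, with 0 and 1 members at an unadjusted p under 0.05, while 2.27% and 5.72% of all genes were called. No member had over 3 counts in a d2 group, so the test of the step from d2 to d3 could hardly pass. It does not show that the rise was alike in both genotypes. For the step from d3 to d4, Hoxc10 and Hoxc11 likewise had few counts at d3.

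**Figure D1:**
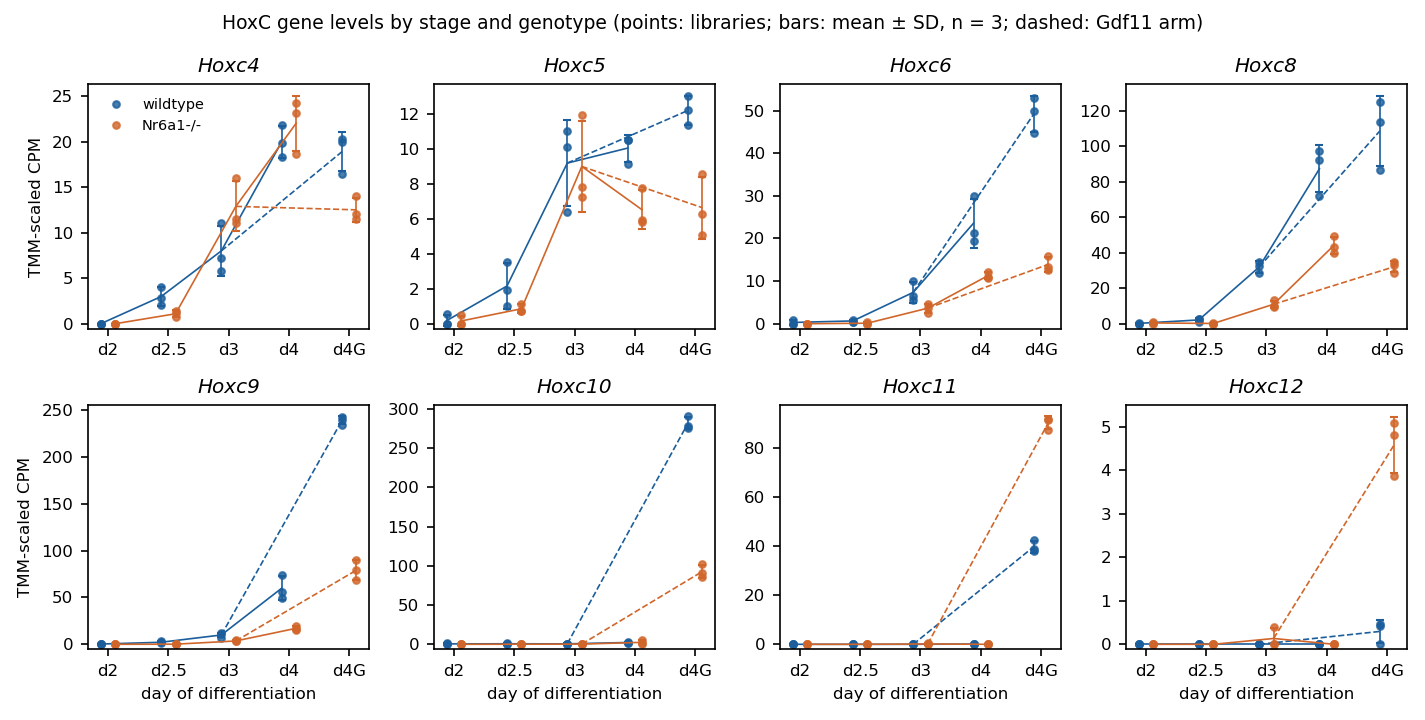
TMM-scaled CPM of the 8 HoxC genes (vertical axes, linear, each panel with its own range) at d2, d2.5, d3, d4 and d4G (horizontal axis), in wildtype (blue) and Nr6a1-/- cells (orange). Points are libraries and bars the mean ± SD of 3; solid lines join the stages without Gdf11 and dashed lines lead from d3 to d4G. Hoxc9 and Hoxc10 are highest in the d4G wildtype libraries, while Hoxc11 and Hoxc12 are highest in the d4G Nr6a1-/- libraries.

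Before Gdf11 was added, members of the middle of the cluster were lower in Nr6a1-/- cells, while Hoxc4 and Hoxc5 did not pass the test at d2.5, d3 or d4. At d3, Hoxc8 was at 9.64, 9.84 and 13.4 CPM in the Nr6a1-/- libraries, all below the wildtype libraries (log2 fold change -1.52 ± 0.22, FDR 3.79e-06). Hoxc9 was at 3.61, 2.99 and 4.09 CPM against 12.1, 10.6 and 7.20 CPM (log2 -1.44 ± 0.32, FDR 0.00237). These were 2 of 7 tested members called lower, against 6.30% of all genes. Hoxc6 lay in the same direction without passing the test (3.64 ± 1.05 against 7.35 ± 2.45 CPM, log2 -1.01 ± 0.35, FDR 0.0607), and Hoxc5 was at 9.004 ± 2.59 against 9.20 ± 2.46 CPM. Hoxc4 was at 16.1, 11.1 and 11.5 CPM in Nr6a1-/- cells against 5.79, 11.05 and 7.20 CPM in wildtype cells (log2 0.68 ± 0.25, FDR 0.0731). Without d3 wildtype library 2, Hoxc4 was called higher and Hoxc6 lower, so that 4 members were called.

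The share of the anterior genes differed accordingly. Hoxc4 and Hoxc5 supplied 31.8% ± 6.81 and 22.1% ± 6.14 of the member counts in the d3 Nr6a1-/- libraries, against 12.0% ± 3.42 and 13.5% ± 1.92 in wildtype, while Hoxc8 supplied 27.0% ± 5.47 against 47.8% ± 2.29. The summed level of all 8 members was 40.6 ± 0.442 CPM in the knockout against 67.0 ± 9.36 CPM. These shares sum to the whole within a library, so a lower share of 1 gene raises the others.

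At d4, Hoxc6, Hoxc8 and Hoxc9 were lower in Nr6a1-/- cells, 3 of 7 tested members against 9.18% of all genes called lower. Hoxc9 showed the lowest ratio, with 19.5, 16.4 and 15.3 CPM against 74.1, 49.7 and 55.8 CPM (log2 -1.78 ± 0.17, FDR 5.35e-10). Hoxc8 was at 44.1 ± 4.93 against 87.3 ± 13.3 CPM (log2 -0.97 ± 0.15, FDR 7.21e-06). Hoxc6 was at 11.3 ± 0.764 against 23.6 ± 5.72 CPM (log2 -1.03 ± 0.22, FDR 0.000957). The same 3 genes were called without d4 wildtype library 2. Hoxc4 was at 22.04 ± 3.01 against 20.001 ± 1.74 CPM (log2 0.15 ± 0.19, FDR 0.641), and Hoxc5 at 6.52 ± 1.11 against 10.1 ± 0.779 CPM (log2 -0.63 ± 0.29, FDR 0.131). The same 3 members were called without d4 Nr6a1-/- library 1.

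Markers of other cell types moved with the genotype at these stages. The lateral or limb mesoderm list (Hand1, Hand2, Foxf1, Gata4, Osr1, Tbx4 and Prrx1), cells in which HoxC genes are also known to act, summed to 10.4 to 14.97 CPM in the d3 wildtype and 3.61 to 6.32 CPM in the d3 Nr6a1-/- libraries, and to 13.1 to 24.9 against 5.96 to 6.93 CPM at d4. Of its 3 tested genes, 2 were lower in Nr6a1-/- cells at each stage, Gata4 and Prrx1 at d3 and Foxf1 and Gata4 at d4, and Hand2 had at most 2 counts in any of these groups. Neural progenitor markers (Sox1, Pax6, Irx3, Hes5, Neurog2 and Olig2) summed to 26.8 to 31.4 CPM in the d2.5 wildtype and 12.7 to 17.2 CPM in the d2.5 Nr6a1-/- libraries, with 0 of 5 tested genes called by edgeR and 4 at an unadjusted p under 0.05. At d3 they summed to 17.95 to 21.2 against 7.23 to 11.9 CPM, with Sox1 and Irx3 called lower, and at d4 to 58.0 to 68.9 against 47.6 to 79.7 CPM, with 3 lower and 1 higher. Endoderm markers (Sox17, Foxa2, Cer1, Trh and Krt18) summed to 221 to 228 against 75.5 to 86.7 CPM at d3, with 3 of 4 tested genes lower, and to 132 to 142 CPM in the d4 wildtype and 30.2 to 37.7 CPM in the d4 Nr6a1-/- libraries, with all 4 tested genes lower and Cer1 at 0. Paraxial mesoderm markers summed to 325 to 411 against 827 to 850 CPM, with all 5 tested genes higher in Nr6a1-/- cells. Markers of the fibroblast feeder layer on which the stem cells had been kept summed to 27.0 to 27.6 CPM in the d4 wildtype and 20.3 to 25.1 CPM in the d4 Nr6a1-/- libraries, with Lum at 0 in the former. In bulk samples fewer cells of a type and less RNA per cell cannot be told apart, and the part of these markers in the HoxC values was not tested.

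**Figure D2:**
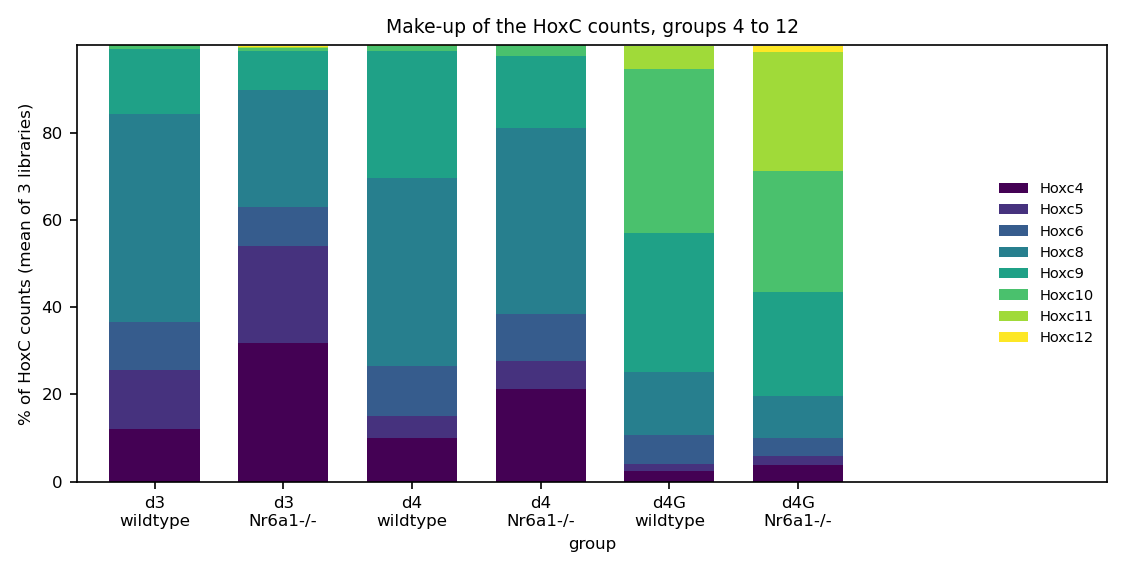
Mean share of the summed HoxC counts (vertical axis, %) held by each of the 8 genes in the d3, d4 and d4G groups of each genotype (horizontal axis), as the mean of 3 libraries. Hoxc11 fills 5.32% of the d4G wildtype bar and 27.3% of the d4G Nr6a1-/- bar, and Hoxc4 fills more of the Nr6a1-/- bar at d3 and d4.

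With Gdf11 the direction of the genotype difference changed between 2 neighbouring genes, Hoxc10 and Hoxc11. In d4G cells Hoxc6, Hoxc8, Hoxc9 and Hoxc10 were lower in Nr6a1-/- than in wildtype cells, 4 of 7 tested members against 4.63% of all genes called lower. Hoxc11 was higher, the 1 member called in that direction against 3.28% of all genes called higher. The level of all 8 members together was 332 ± 16.1 CPM in Nr6a1-/- and 750 ± 23.7 CPM in wildtype cells.

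Hoxc10, known from the lumbar level and the hindlimb field, was the most abundant member in d4G wildtype cells. In d4G Nr6a1-/- cells its mean of 92.9 CPM lay close to that of Hoxc11, 90.5 CPM. Hoxc10 was at 276, 279 and 290 CPM in the wildtype libraries and at 102, 90.4 and 86.2 CPM in the Nr6a1-/- libraries (log2 fold change -1.60 ± 0.15, FDR 1.21e-09). Hoxc9 was at 234, 240 and 243 CPM against 89.9, 68.8 and 78.9 CPM (log2 -1.59 ± 0.13, FDR 1.84e-11). The groups were far apart in both genes, and every wildtype library lay above 2 times the highest Nr6a1-/- library. Hoxc8 was at 86.5, 125 and 114 CPM against 34.6, 28.7 and 33.0 CPM (log2 -1.75 ± 0.16, FDR 2.82e-10). Hoxc6 was at 53.0, 49.9 and 44.7 CPM against 12.5, 13.4 and 15.9 CPM (log2 -1.81 ± 0.21, FDR 6.53e-08). The 4 fold changes thus lay between -1.81 and -1.59 on the log2 scale, a spread little wider than the SE of a single gene.

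The anterior pair lay below wildtype without passing the test. Hoxc4 was at 12.5 ± 1.31 CPM against 18.9 ± 2.15 CPM in wildtype (log2 -0.61 ± 0.22, FDR 0.0971). Hoxc5 was at 6.64 ± 1.77 against 12.2 ± 0.829 CPM (log2 -0.83 ± 0.30, FDR 0.0812). Neither was called under any alternative tried.

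Hoxc11, a posterior gene of the sacral level, was at 39.1, 42.6 and 37.9 CPM in the d4G wildtype libraries and at 87.5, 91.7 and 92.2 CPM in the d4G Nr6a1-/- libraries (log2 1.18 ± 0.15, FDR 7.27e-06). All 3 Nr6a1-/- libraries lay above 2 times the wildtype mean. Hoxc12 had 1, 0 and 1 counts in the wildtype and 10, 8 and 9 counts in the Nr6a1-/- libraries, and elsewhere 1 count in a single d3 Nr6a1-/- library. Its summed counts of 27 against 2 gave a ratio of 15.8 (3.96 to 137, 95% counting interval). With no filter on low counts the fit gave a log2 fold change of 3.74 and an FDR of 0.00438.

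The transcripts around Hoxc12 lay in the same direction. Hotair, which does not overlap an annotated exon of any member, had 7, 10 and 9 counts in the d4G wildtype and 42, 47 and 48 counts in the d4G Nr6a1-/- libraries (log2 2.63 ± 0.33, FDR 4.12e-06), and at most 1 count in any other group. Hoxc13, beyond Hoxc12 at the end of the cluster, was at 7.73 ± 2.12 against 64.8 ± 5.15 CPM. It already had 5, 4 and 4 counts in the d2 wildtype libraries. At d3 Hoxc13 was called lower in Nr6a1-/- cells (1.08 ± 0.291 against 4.43 ± 1.54 CPM, log2 -2.01 ± 0.51, FDR 0.00741). Whether the counting used strand is not stated, so that reads of an antisense transcript and of unannotated sense transcription there cannot be told apart. All tested transcripts from Hoxc13 to Hoxc11 were higher in Nr6a1-/- d4G cells, and the 4 from Hoxc10 to Hoxc6 were lower.

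**Figure D3:**
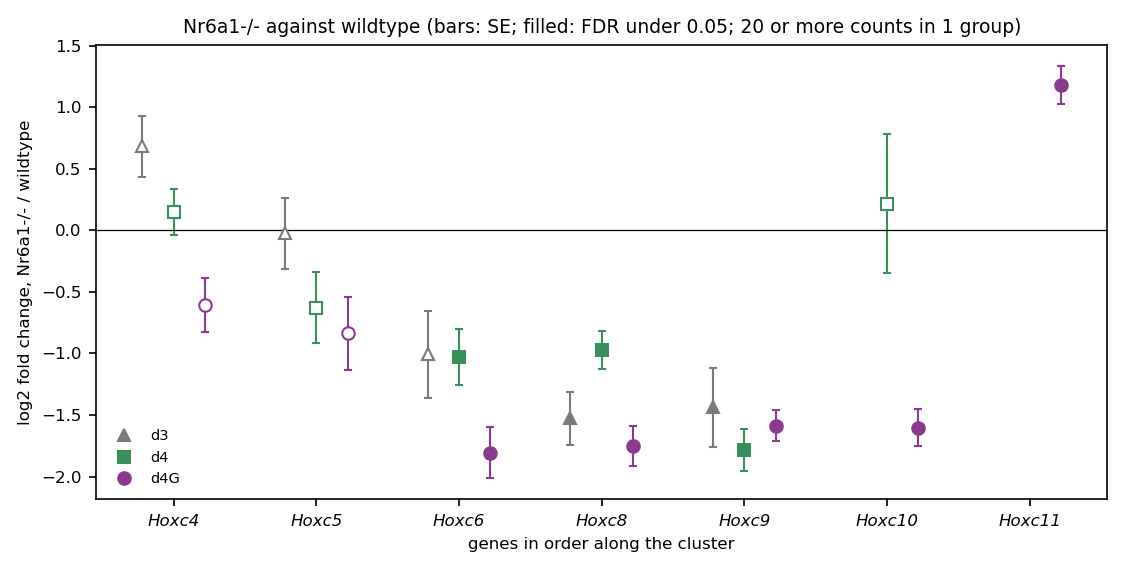
Log2 fold change of Nr6a1-/- against wildtype cells (vertical axis; bars are the SE) for 7 HoxC genes in their order along the cluster (horizontal axis) at d3 (grey triangles), d4 (green squares) and d4G (purple circles). Filled symbols passed an FDR of 0.05, and genes with fewer than 20 counts in both groups are left out. The values fall from Hoxc4 to the middle genes, and at d4G Hoxc10 lies at -1.60 and Hoxc11 at 1.18.

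A ratio of 2 genes within a library does not depend on scaling between libraries. In d4G cells Hoxc10 over Hoxc9 was 1.18, 1.16 and 1.196 in wildtype and 1.13, 1.31 and 1.09 in Nr6a1-/- libraries (exact permutation p = 1). Hoxc9 over Hoxc8 was 2.25 ± 0.409 against 2.46 ± 0.117 (exact permutation p = 0.5), and Hoxc8 over Hoxc6 was 2.23 ± 0.517 against 2.33 ± 0.381 (exact permutation p = 0.8). Hoxc11 over Hoxc10 was 0.141, 0.153 and 0.131 in wildtype and 0.858, 1.01 and 1.07 in Nr6a1-/- libraries. Hoxc6 over Hoxc5 was 4.04 ± 0.370 against 2.16 ± 0.411. For these 2 pairs the genotypes did not overlap, and the two-sided exact permutation p was 0.1, the smallest that 3 against 3 libraries allow. The ratios between Hoxc6 and Hoxc10 overlapped.

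At d4 without Gdf11, Hoxc11 had 1 count in wildtype and 0 in Nr6a1-/- libraries, so that its ratio to Hoxc10 could not be read. Hoxc9 over Hoxc8 was 0.685 ± 0.0793 in wildtype and 0.392 ± 0.0726 in Nr6a1-/- libraries, without overlap (exact permutation p = 0.1, the smallest possible). Hoxc5 over Hoxc4 was 0.507 ± 0.0789 against 0.305 ± 0.0986 (exact permutation p = 0.1), and its nearest libraries were at 0.420 (wildtype) and 0.419 (Nr6a1-/-). Hoxc8 over Hoxc6 was 3.77 ± 0.554 against 3.92 ± 0.475 (exact permutation p = 0.8), and Hoxc6 over Hoxc5 was 2.39 ± 0.785 against 1.75 ± 0.168 (exact permutation p = 0.2). The ratios were not tested between d4 and d4G.

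**Figure D4:**
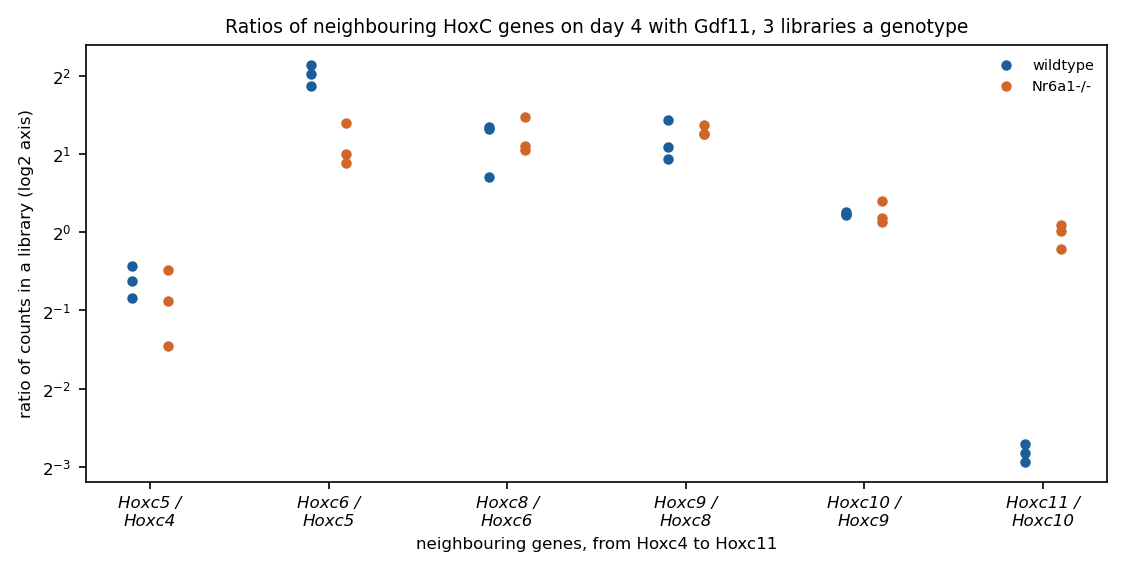
Ratio of the counts of neighbouring HoxC genes within each d4G library (vertical axis, log2 scale; gene pairs from Hoxc5 over Hoxc4 to Hoxc11 over Hoxc10 on the horizontal axis), for 3 wildtype (blue) and 3 Nr6a1-/- (orange) libraries. The genotypes separate for Hoxc6 over Hoxc5 and for Hoxc11 over Hoxc10, which was 0.142 ± 0.0112 in wildtype and 0.981 ± 0.109 in Nr6a1-/- cells.

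The response to Gdf11, taken as d4G against d4, was highest for Hoxc10 and Hoxc11 among the 7 tested members in both genotypes. Hoxc12, beyond them, had 0 counts in d4 and 2 counts in d4G wildtype cells. In wildtype cells Hoxc6, Hoxc9, Hoxc10 and Hoxc11 rose, 4 of 7 tested members against 14.3% of all genes called higher. Hoxc10 and Hoxc11 passed the filter on low counts through the d4G groups alone, so their rise over d4 was close to set in advance. Counting them against the share over all genes therefore carries no weight. Hoxc10 rose from 20 counts over the 3 d4 libraries to 1969 in d4G, a ratio of 130 (84.1 to 214, 95% counting interval). Hoxc11 rose from 1 count to 279, a ratio of 369 (65.7 to 14638). This interval contains that of Hoxc10, so the order of these genes is not set in wildtype cells. Hoxc9 rose from 59.9 ± 12.7 to 239 ± 4.25 CPM (log2 2.02 ± 0.13, FDR 1.55e-14) and Hoxc6 from 23.6 ± 5.72 to 49.2 ± 4.22 CPM (log2 1.09 ± 0.18, FDR 1.66e-05). Hoxc8 was at 108 ± 19.8 CPM in d4G (log2 0.33 ± 0.14, FDR 0.0724) and was called in 4 of 13 alternatives, among them those without d4 or d4G wildtype library 1. Hoxc4 (log2 -0.07 ± 0.19, FDR 0.817) and Hoxc5 (log2 0.27 ± 0.26, FDR 0.477) did not pass the test. The same 4 members were called without d4 wildtype library 2.

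In Nr6a1-/- cells Hoxc9, Hoxc10 and Hoxc11 rose with Gdf11, 3 of 7 tested members against 8.45% of all genes called higher, and Hoxc4 fell, 1 member against 9.59% of all genes called lower. Here too Hoxc10 and Hoxc11 had entered the test through the d4G groups alone, so their part in that count carries no weight. Hoxc10 rose from 17 to 555 counts, a ratio of 36.7 (22.7 to 63.5). Hoxc11 had 0 counts in d4 and 541 in d4G, at least 203-fold higher when 0 is held to 3 counts over the group (exact 95% lower counting limit 164). Hoxc12 was at least 10.1-fold higher by the same rule (lower limit 7.68). Hoxc9 rose from 17.1 ± 2.15 to 79.2 ± 10.6 CPM (log2 2.22 ± 0.17, FDR 2.35e-12). Hoxc4 fell from 18.6, 23.2 and 24.3 CPM to 11.5, 14.0 and 12.0 CPM (log2 -0.83 ± 0.22, FDR 0.00652). Hoxc6 (log2 0.31 ± 0.26, FDR 0.455), Hoxc8 (log2 -0.45 ± 0.18, FDR 0.0734) and Hoxc5 (log2 0.06 ± 0.33, FDR 0.933) did not pass the test. The same 4 members were called without d4 Nr6a1-/- library 1.

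The difference of the Gdf11 response between the genotypes was tested directly. By edgeR 0 of 7 members passed, while 4 had an unadjusted p under 0.05 and 2.66% of all genes were called. Hoxc8 lay closest to the threshold (Nr6a1-/- minus wildtype response -0.78 ± 0.22 on the log2 scale, FDR 0.0517), and was called in 7 of 19 alternatives, among them those without d4 wildtype library 1, d4G wildtype library 1 or d4 Nr6a1-/- library 1. Hoxc10 had the widest difference among the members with counts in every d4 library (log2 -1.82 ± 0.62, FDR 0.118). It was the 1 member called by DESeq2 and was called in 4 of 19 alternatives, among them the one without d4 Nr6a1-/- library 1, which called 2 members, Hoxc8 and Hoxc10. The Hoxc9 response was 2.02 in wildtype and 2.22 in Nr6a1-/- cells, a difference of 0.20 ± 0.22 on the log2 scale (FDR 0.747). The response of Hoxc11 rests on 1 and 0 counts at d4 and gives no usable difference. Outside the members, Hoxc13 passed that test (3.81 ± 0.49, FDR 2.85e-06), with responses of 1.02 in wildtype and 4.83 in Nr6a1-/- cells.

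The NMP markers moved with the genotype in d4G cells. The 8 markers summed to 418 to 449 CPM in the d4G wildtype and 256 to 310 CPM in the d4G Nr6a1-/- libraries, with 6 lower and 1 higher of 8 tested. The 4 tested endoderm markers were lower in Nr6a1-/- cells, at sums of 145 to 157 against 36.6 to 42.0 CPM, with Cer1 at 0. Paraxial mesoderm markers summed to 153 to 183 against 283 to 314 CPM. The lateral or limb mesoderm list overlapped between the genotypes, at 33.5 to 70.4 against 27.9 to 62.5 CPM, and 0 of its 3 tested genes were called. The part of these markers in the HoxC values was not tested.

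**Figure D5:**
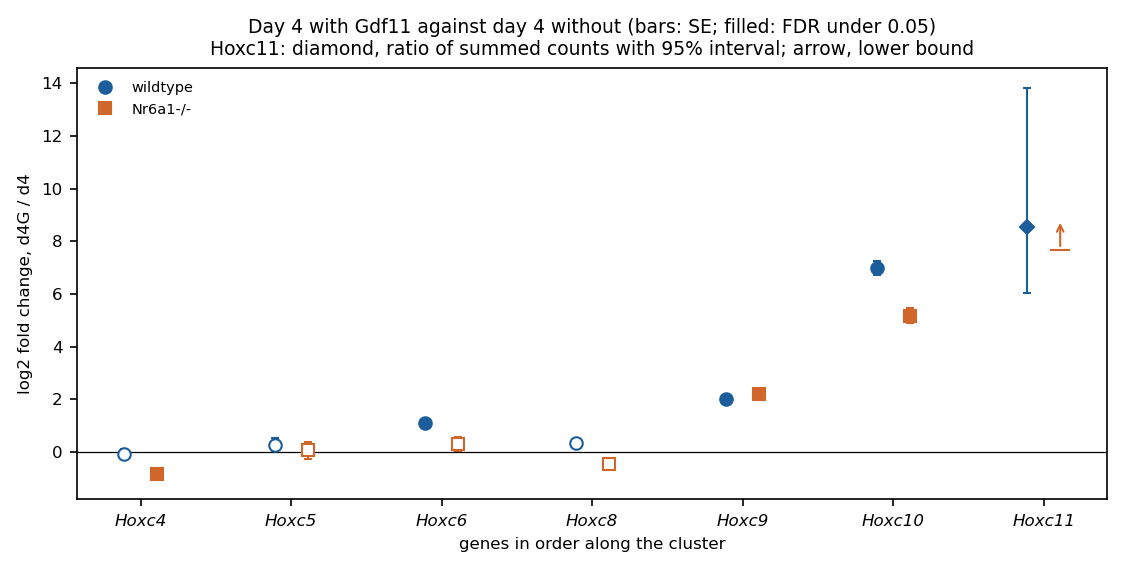
Log2 fold change of d4G against d4 (vertical axis) for 7 HoxC genes in cluster order (horizontal axis) in wildtype (blue circles) and Nr6a1-/- cells (orange squares). Bars are the SE and filled symbols passed an FDR of 0.05; for Hoxc11 the diamond is the ratio of summed counts with its 95% counting interval and the arrow starts at the lower bound set by 0 counts. The response is higher for Hoxc10 and Hoxc11 than for Hoxc9 in both genotypes. Hoxc4 fell in Nr6a1-/- cells alone by this threshold, a difference that did not pass the test between genotypes (FDR 0.189).

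The paralogues of the members on the HoxA, HoxB and HoxD clusters, their nearest relatives in sequence, were read in the same d4G cells. Of 17 listed, 15 were tested, and 2 were higher (Hoxd11 and Hoxd12) and 1 lower (Hoxd9) in Nr6a1-/- cells, against 3.28% and 4.63% of all genes. Their median log2 fold change was 0.13, against -1.59 over the 7 tested HoxC members and 0.01 over all genes tested. Hoxa10 (log2 0.14 ± 0.17, FDR 0.727) and Hoxd10 (log2 0.23 ± 0.19, FDR 0.581) did not pass the test, whereas Hoxc10 was lower. Hoxc10 over Hoxa10 within a library was 2.19 ± 0.186 in wildtype and 0.667 ± 0.127 in Nr6a1-/- cells, and Hoxc10 over Hoxd10 was 6.65 ± 1.17 against 1.83 ± 0.146. Hoxc9 over Hoxa9 was 1.54 ± 0.0828 against 0.544 ± 0.0908, and Hoxc6 over Hoxb6 was 1.11 ± 0.0615 against 0.331 ± 0.0645. The ratios of Hoxc11 went the other way, with Hoxc11 over Hoxa11 at 2.22 ± 0.476 in wildtype and 5.99 ± 1.06 in Nr6a1-/- cells. Hoxc11 over Hoxd11 was 0.310 ± 0.0232 against 0.395 ± 0.0546, and its nearest libraries were at 0.3320 and 0.3321. In all 10 member-to-paralogue ratios computed at d4G, whichever the direction, the two-sided exact permutation p was 0.1. This is the smallest possible, so that none can pass after adjustment.

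Genes of groups 11 and 12 were also higher on the HoxD cluster. Hoxd11 was at 232 ± 27.8 CPM in Nr6a1-/- and 129 ± 10.1 CPM in wildtype d4G cells (log2 0.84 ± 0.12, FDR 1.13e-05), and Hoxd12 at 15.5 ± 1.58 against 2.03 ± 0.763 CPM (log2 2.93 ± 0.39, FDR 1.34e-05). Hoxa11 did not pass the test (log2 -0.24 ± 0.27, FDR 0.719). Before Gdf11, at d4, the group 9 genes Hoxa9, Hoxb9 and Hoxd9 were lower in Nr6a1-/- cells as Hoxc9 was, with log2 fold changes of -2.06 ± 0.20, -1.39 ± 0.15 and -1.38 ± 0.31. Hoxb6 was also lower (log2 -0.46 ± 0.14, FDR 0.0156), making 4 of 15 tested, against 9.18% of all genes called lower.

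The Gdf11 response of the group 9 genes was compared between the genotypes, and no test was run between clusters. Hoxa9 rose by 2.01 ± 0.14 in wildtype and 3.98 ± 0.18 in Nr6a1-/- cells on the log2 scale, and the difference passed the test (1.97 ± 0.24, FDR 1.98e-06), so that Hoxa9 was at 156 ± 6.07 and 146 ± 5.28 CPM in d4G. Hoxb9 also had a higher response in Nr6a1-/- cells (1.15 ± 0.22, FDR 0.00127). For Hoxc9 that difference was 0.20 ± 0.22 (FDR 0.747), and its d4G level stayed lower in Nr6a1-/- cells. Hoxd9 was likewise not called for that difference and was lower in d4G Nr6a1-/- cells.

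Genes that bear on Hox function or expression were read from fixed lists. Of the 9 tested TALE genes (Pbx, Meis and Pknox), whose products bind DNA together with Hox proteins, 8 were called at d4, 7 of them up and 1 down in the knockout, against 9.70% and 9.18% of all genes, and 2 were up at d4G, against 3.28%. Meis2 was higher by 0.94 ± 0.12 on the log2 scale at d4 (FDR 2.65e-07). Of the 3 Cdx genes, which encode homeodomain factors known to switch on middle Hox genes, Cdx1 was higher (log2 0.52 ± 0.12, FDR 0.00248) and Cdx2 (log2 -0.96 ± 0.16, FDR 4.84e-05) and Cdx4 (log2 -1.71 ± 0.11, FDR 2.05e-14) were lower in d4G Nr6a1-/- cells. At d4 Cdx4 was also lower (log2 -1.33 ± 0.11, FDR 6.85e-12) and Cdx1 higher.

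The genes beside the cluster were read as well. Of the 6 tested flanking genes, by edgeR 0 were called between the genotypes at d4G, with 1 at an unadjusted p under 0.05, against 7.90% of all genes called. At d4, 2 (Cbx5 and Copz1) were higher in Nr6a1-/- cells, against 9.70% of all genes called higher. A list of 6 genes is too short to set these counts apart from the shares over all genes. The other 462 tested genes of chromosome 15 had a median log2 fold change of -0.00364 at d4G.

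The members' mean log2 levels were compared across the 10 groups. Pearson's r over the 10 group means was 0.967 between Hoxc4 and Hoxc5, 0.981 between Hoxc6 and Hoxc8 and 0.953 between Hoxc10 and Hoxc11, against 0.395 between Hoxc4 and Hoxc11. The order of these values did not follow the distance along the cluster throughout, since Hoxc4 had 0.940 with Hoxc8 and 0.906 with Hoxc6. The genes outside the members with the most similar pattern were often Hox genes too. Hoxc11 was nearest to Hoxd11 (r = 0.994), Hoxa11os and Hoxd10, and Hoxc10 was nearest to Hoxd10 (r = 0.981), Angpt1 and Rhob. Hoxc9 was nearest to Hoxd3os1 (r = 0.982), Phf20l1 and Hoxa9, and Hoxc8 to Hoxd1 (r = 0.981), Irf2 and Hoxa7. Hoxc6 was nearest to Hoxd1 (r = 0.989), Hoxa7 and Fut4, Hoxc5 to Amot (r = 0.984), Hoxb9 and Pcsk5, and Hoxc4 to Gm45889 (r = 0.992), Hoxb6 and Hoxb4. These correlations describe 10 means that share libraries and a common time course. Without Gdf11, Hoxc11 had at most 1 count and Hoxc10 at most 20 counts in any group. Their values therefore rest largely on the d4G groups, where the 2 genes differed between the genotypes in opposite directions.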

How the data were processed

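Libraries were indexed at the poly(A) tail and amplified by template switching. The submitters' processing notes name STAR, edgeR and mm10; the gene counter, its use of strand and whether the molecular identifiers were collapsed are not given in the sources used here. The deposited table holds raw counts per gene for 54134 genes in 30 libraries. Other deposited tables hold the authors' log2 fold changes, p-values and FDR for selected genes and were not used.

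The filter required over 10 counts together with over 2 CPM, in 2 or more libraries of any 1 group (12149 genes passed, with at least 99.16% of the counts). Library sizes were scaled by TMM, and 1 model of the 10 groups (20 residual degrees of freedom) was fitted with edgeR 4.0.16 (R 4.3.3) and tested by its quasi-likelihood test, with Benjamini-Hochberg adjusted p-values (FDR, threshold 0.05). The SE is the log2 fold change over the square root of F. Ratios of summed counts have exact conditional 95% intervals, for counting error only, and a count of 0 is held to 3 counts. The test code was run on simulated counts first. Ratios within libraries were compared by two-sided exact permutation tests.

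Named genes were the 8 members, Nr6a1, the listed paralogues, cluster transcripts, flanking genes, TALE and Cdx genes, and for each tested member the 3 genes with the highest correlation. Members and lists were chosen with earlier results of these data known. Replicate numbers did not pair the samples (21 same-numbered pairs, r of deviations -0.111 to 0.163). Replicate libraries differed by more than sampling noise (chi-square per gene 1.46 to 7.00 over 30 pairs). Alternatives were RLE factors, no factors, no filter, the compared libraries alone, a replicate block, thinning to the smallest total, DESeq2 1.42.0 and leaving out each library.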

Additional observations from a re-analysis of the deposited data

How the results depend on the processing

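Of 796 alternative fits for the 60 member results with an unadjusted p under 0.05, 764 kept direction and side of the threshold, 11 lost the call, 21 gained one and 0 reversed. The 4 lower and 1 higher members at d4G were called in every alternative run. Leaving out 1 library in turn, the number of members called between the genotypes was 0 to 0 at d2, 1 to 2 at d2.5, 2 to 4 at d3, 3 to 3 at d4 and 5 to 5 at d4G. It was 4 to 5 for the wildtype and 4 to 4 for the Nr6a1-/- Gdf11 response, and 0 to 2 for their difference. For the wildtype steps it was 3 to 4 (d2 to d2.5), 4 to 5 (d2.5 to d3) and 4 to 4 (d3 to d4), for the Nr6a1-/- steps 1 to 2, 5 to 5 and 4 to 5, and for both differences between steps 0 to 0.

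Thinning to the smallest total left 1 member at d2.5 between the genotypes and 2 in the wildtype step from d2 to d2.5, and gave 2 for the difference of the Gdf11 response and 1 for the difference of the step from d3 to d4. A fit of the compared libraries alone tested 0 members at d2.5 between the genotypes and in the steps from d2 to d2.5, so that 0 were called, and 3 in the Nr6a1-/- step from d2.5 to d3, of which 3 were called. For the difference of the Gdf11 response, 1 member was called without normalisation factors (Hoxc8), 2 with no filter on low counts (Hoxc8 and Hoxc10) and 1 by DESeq2 (Hoxc10). The replicate block gave 1 (Hoxc8) and moved no other number of members called by over 1.5 times. Replicate numbers gave the best correlation with their own number in 8 of 21 pairs.

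Depth limits the values at d2 and d2.5, where 13 counts against 1 carry a call, and those of Hoxc12. The libraries hold no second clone, and the causes of the changes above were not tested.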
